A study of Mus musculus with 8 samples.

Results

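Bcl11b binding was examined at 6 genes of the Sox family, Sox4, Sox5, Sox6, Sox12, Sox13 and Sox17, in mouse thymocytes. Bcl11b is a zinc finger protein on which commitment to the T cell lineage depends. Chromatin was precipitated with an antibody against Bcl11b and sequenced (ChIP-seq) from Bcl11b +/+ thymocytes (3 libraries), called wild type here, and from Bcl11b +/N440K thymocytes (3 libraries), called N440K, which carry 1 wild type and 1 N440K allele. The comparison asks at which places Bcl11b binding differs between the genotypes. The sources used here do not give the animals' age, or whether the libraries of a genotype came from separate animals, so a p-value covers the spread among these libraries alone, and that spread may be technical. No input chromatin was analysed here (the series has 2 wild type inputs), so no value is set against input and a difference in DNA copy number between the genotypes cannot be told apart from a difference in binding. Reads in intervals totalled 1787899, 2661343 and 2579988 (wild type) and 1997125, 1812952 and 2123877 (N440K).

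A Sox interval was an interval of 201 bp in the deposited table of CPM values, which are reads scaled to the size of each library, whose nearest protein-coding gene body was 1 of the 6 genes, at no more than 100 kb from the interval's midpoint. This held for 71 of the 63098 intervals: 25 at Sox4, 19 at Sox5, 9 at Sox6, 7 at Sox12, 10 at Sox13 and 1 at Sox17. A further 55 intervals met the same distance rule but were left out of the CPM table, whose intervals are those that pass a filter on low counts; 18 of them lay at Sox6 and 23 at Sox5. The filter asks for enough reads in 3 libraries, which 1 genotype alone can supply. An interval can thus enter through the genotype where it is high. At the edge of the distance rule, the farthest interval kept lay 77.7 kb from Sox5, with 2.91 CPM in wild type, against 6.38 CPM in N440K on average, and it was also the interval with the lowest level kept. The first interval past the limit lay 103.8 kb from Sox6, with 6.05 and 5.29 CPM. The highest level left out by the filter was at Sox4, with 4.72 and 5.87 CPM. The intervals were selected on position and on read counts high enough for the CPM table, while the 6 genes were proposed with earlier results of these libraries known, among them the lower signal at an interval beside Sox6, so that interval's values are a description and no independent support for a change at Sox6.

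Sox proteins bind DNA through a high mobility group (HMG) box, which they share with the T cell factors Tcf7 and Lef1. Sox4 and Sox12 belong to the SoxC group of transcriptional activators, and Sox4 is known for its role in early T and B cell development. Sox5, Sox6 and Sox13 form the SoxD group, which lacks a transactivation domain and acts through partner proteins; Sox5 and Sox6 are known for cartilage formation, Sox6 also for silencing fetal globin genes together with Bcl11a, the paralog of Bcl11b, and Sox13, with Sox4, for the gamma delta T cells that make interleukin 17. Sox17, of the SoxF group, is known from endoderm, endothelium and fetal blood stem cells. An interval near a gene shows where Bcl11b was found on the chromatin, not whether the gene was expressed.

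The promoter sequences of Sox4 and Sox12 are shown because each holds a Bcl11b interval and the genes form 1 group with different results: the summed Sox12 signal was lower in N440K and the summed Sox4 signal was not called. Both are printed on the minus strand, the strand of transcription, from RefSeq promoters on GRCm38.p6 (the coordinates of mm10). The Sox4 interval, chr13:28953730-28953930, lies upstream of the start, from position -231 to -31, and the capitals mark the E-box word CAGCTG.

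Sox4: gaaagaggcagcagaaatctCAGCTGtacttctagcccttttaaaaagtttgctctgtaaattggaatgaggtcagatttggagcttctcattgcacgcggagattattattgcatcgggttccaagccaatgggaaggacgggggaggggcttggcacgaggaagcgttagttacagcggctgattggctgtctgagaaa

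Of the Sox12 interval at the start, the promoter table holds 174 bases, chr2:152398123-152398296, from position -250 to -77. The capitals mark the GC box word GGGCGG on either strand.

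Sox12: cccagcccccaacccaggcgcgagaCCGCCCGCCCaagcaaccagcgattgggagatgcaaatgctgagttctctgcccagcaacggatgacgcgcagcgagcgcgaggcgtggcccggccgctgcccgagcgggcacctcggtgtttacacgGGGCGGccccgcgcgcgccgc

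Both strands were searched for 8 words: TGTGGT for Runx factors, CGGAAG for the Ets family, AACAAT for Sox proteins, CTTTGA for Tcf and Lef, AGATAA for Gata factors, CAGCTG for E-box proteins, GGGCGG for the GC box and TGACCA for Bcl11a. The Sox4 stretch held 1 match, to the E-box, a word found in 10.6% of all promoters over the same positions. The Sox12 stretch held 3 matches, all to the GC box and a pair of them overlapping, a word found in 20.04% of promoters over its positions. Its GC content was 73.0%, against a median of 51.1% over all promoters, while that of the Sox4 stretch was 48.3% against a median of 52.2%. A match describes letters in these windows and not a bound site. None of the 6 Sox6 promoter windows in the table overlapped a Sox6 interval of the CPM table. The window chr7:116030998-116031297 did overlap a Sox6 interval left out by the low-count filter, chr7:116031158-116031358. That interval had 9, 10 and 11 reads in wild type and 3, 1 and 1 in N440K. The sequences of the Sox6 intervals are not shown here.

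Among the 71 Sox intervals, 3 were lower in N440K and 0 were higher at an adjusted p under 0.05 (edgeR quasi-likelihood test, Benjamini-Hochberg adjustment over all 63098 intervals). All 3 lay at Sox6. Over all intervals, 0.681% were called lower and 0.46% higher. At an unadjusted p under 0.05, 9 Sox intervals were lower and 3 higher, against 6.52% and 6.16% of all intervals. DESeq2 and limma voom also called 0 Sox intervals higher. The N440K libraries lay entirely below the wild type libraries at 12 Sox intervals and entirely above them at 3, against 8.95% and 8.34% of all intervals. The median log2 difference (N440K minus wild type) was -0.10 over the Sox intervals and 0.00 over all intervals. The genes differed in how their intervals lay: all 9 Sox6 intervals and all 7 Sox12 intervals had a negative difference, as did 14 of 25 at Sox4, 6 of 19 at Sox5 and 7 of 10 at Sox13, against 49.5% of all intervals.

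**Figure D1:**
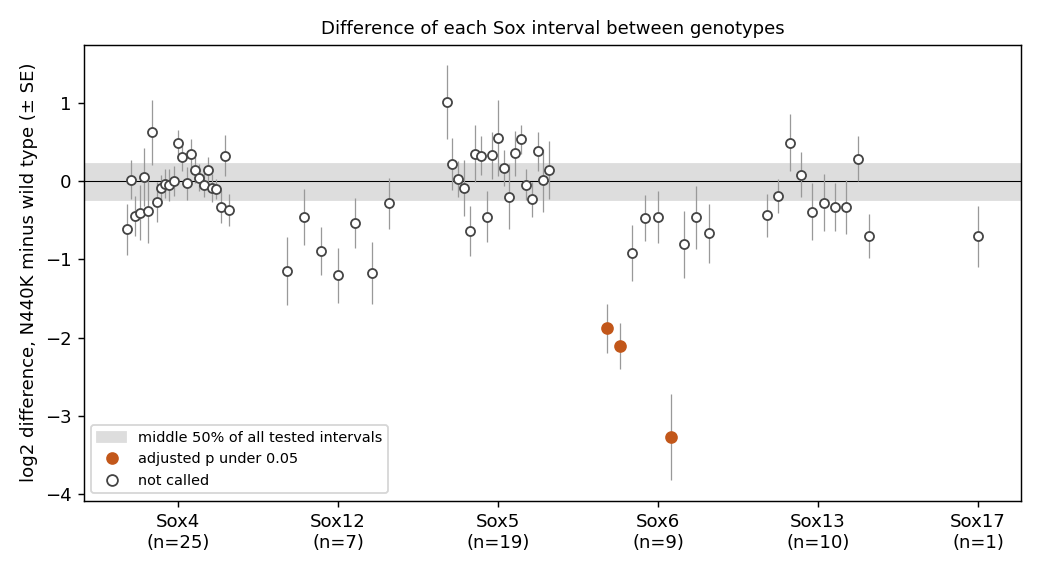
Log2 difference (N440K minus wild type) of each of the 71 Sox intervals with its standard error, in genome order within each gene; the grey band holds the middle 50% of all tested intervals. The 3 called intervals, filled, all lie at Sox6, and all intervals of Sox6 and Sox12 lie below 0.

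Sox4 carried the strongest and densest Bcl11b signal of the 6 genes. Its body, on chromosome 13 from 28948919 to 28953699, held 8 intervals in 4.78 kb, or 16.7 per 10 kb; of the 11377 protein-coding genes with an interval inside the body, 58 were denser. With 25 intervals it was exceeded by 152 of 13282 genes. The median level of a Sox4 interval over the 6 libraries was 24.3 CPM, against 11.8 CPM over all intervals, and 20 of the 25 lay above that median and 8 in the top 10%. Neighbouring intervals did not overlap, but 17 pairs of neighbours lay under 1 kb apart, so they are not independent of each other.

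The strongest Sox4 interval, chr13:28959701-28959901, lay 6.10 kb before the transcription start, at the 99.0th percentile of all intervals. It had 65.1, 65.9 and 59.2 CPM in wild type, against 57.0, 56.1 and 63.5 CPM in N440K. The genotypes overlapped there, with a log2 difference of -0.10 ± 0.13 (SE) and an adjusted p of 0.808 in edgeR. The group of 5 intervals from 4 to 7 kb before the start, which holds it, summed to 200.3 ± 8.69 CPM in wild type, against 198.4 ± 8.72 CPM in N440K (SD, n = 3 each). The interval at the promoter, whose sequence is printed above, had 31.6, 32.5 and 35.6 CPM in wild type, against 37.7, 40.3 and 33.3 CPM in N440K, again with overlap (edgeR adjusted p = 0.775).

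Inside the Sox4 body the 8 intervals summed to 214.6 ± 10.8 CPM in wild type, against 234.1 ± 18.4 CPM in N440K (SD, n = 3 each), and the libraries overlapped. One of them, chr13:28952216-28952416, stood at 24.8, 30.5 and 27.5 CPM in wild type and at 36.0, 48.2 and 33.8 CPM in N440K. All its N440K libraries lay above all its wild type libraries, but its log2 difference of 0.49 ± 0.17 (SE) did not pass the test (edgeR adjusted p = 0.163). A weaker group of 5 intervals from 61 to 66 kb beyond the lower end of the gene summed to 56.4 ± 3.70 CPM and 47.0 ± 10.5 CPM (SD, n = 3 each), also with overlap. A further 33 intervals nearest to Sox4 lay past the 100 kb limit, out to 397 kb, in the stretch without another protein-coding gene nearer by; 0 of these were called, and their median log2 difference was -0.14.

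**Figure D2:**
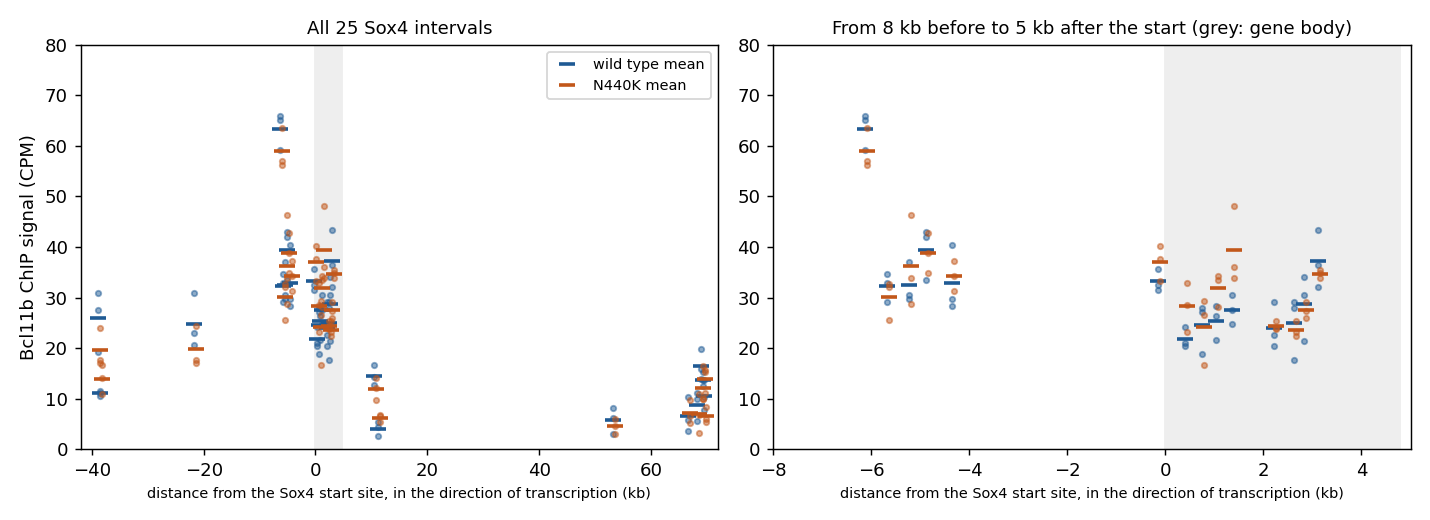
Bcl11b signal (CPM) of the Sox4 intervals against their distance from the transcription start (kb, positive in the direction of transcription), all 25 on the left and those near the gene on the right. Points are libraries, bars are genotype means and grey marks the gene body; the libraries of both genotypes overlap at most intervals, and the highest interval lies 6.10 kb before the start.

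Sox12, the other SoxC gene, differed from Sox4 in its summed signal. Its 7 intervals lay in 1 cluster across the start of a 4.44 kb body (chromosome 2, 152393611 to 152398046), with 4 inside the body and 3 within 0.776 kb before the start, and with gaps of 43 to 463 bp. Levels were low, with a median of 8.27 CPM and none of the 7 above the median of all intervals. No interval was called singly. The smallest adjusted p, 0.0711 in edgeR, was that of chr2:152397828-152398028, which lies 0.118 kb inside the start and had 15.5, 8.65 and 10.7 CPM in wild type, against 5.54, 6.10 and 3.12 CPM in N440K. Its log2 difference was -1.20 ± 0.35 (SE).

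All 6 pairs of neighbours in the cluster lay under 1 kb apart, with a median gap of 161.5 bp, so the 7 Sox12 intervals can share fragments and are not independent of each other. At 4 of the 7 every N440K library lay below every wild type library, against 8.95% of all intervals. One was the interval whose sequence is printed above, with 9.29, 10.7 and 9.87 CPM in wild type, against 8.31, 7.32 and 5.21 CPM in N440K (edgeR adjusted p = 0.512). Another, chr2:152398367-152398567, lay 0.421 kb before the start, and had 7.44, 8.23 and 9.44 CPM against 2.77, 3.05 and 5.21 CPM (edgeR adjusted p = 0.136). Its N440K reads were 5, 5 and 10, so it passed the low-count filter through its wild type libraries. The differences of all 7 ran from -1.20 to -0.28 on the log2 scale. The 127 intervals of other genes within 1 Mb of Sox12 had a median log2 difference of 0.04, and 0 were called.

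Summed over its 7 intervals, Sox12 stood at 63.8, 69.2 and 70.8 CPM in wild type, against 34.3, 42.7 and 42.2 CPM in N440K, with no overlap. When counts were summed over the intervals of each of 13282 genes and tested in the same way, 3.31% of the genes were called in either direction and 2.26% were called lower in N440K. Sox12 was among the latter, 1.74-fold lower with a log2 difference of -0.80 ± 0.14 (SE), an adjusted p of 0.000506 in edgeR, and rank 45 of all genes. Its sum includes intervals that passed the low-count filter through their wild type libraries. Sox4 was not called: its sums were 587, 571 and 615 CPM in wild type, against 575, 624 and 580 CPM in N440K. Its log2 difference was -0.01 ± 0.07 (SE), with a 95% interval from -0.15 to 0.12 and an adjusted p of 0.952 in edgeR. The log2 ratio of the Sox12 sum to the Sox4 sum was -3.12 ± 0.08 in wild type and -3.90 ± 0.15 in N440K (SD, n = 3 each), a difference of -0.78 without overlap (two-sided exact permutation p = 0.1, the smallest that 3 against 3 allows). The Sox12 sums alone did not overlap and the Sox4 sums varied little, so this ratio restates the Sox12 difference and is no separate support.

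Within the SoxD group, every called interval lay at Sox6, and signal there was lower in N440K across the gene. The Sox6 body spans 569.9 kb of chromosome 7 (115470872 to 116040776) and is sparsely bound, with 7 intervals inside and 2 beside it, a median level of 7.27 CPM, and 1 of 9 above the median of all intervals. The 2 intervals beside the gene lie 20.16 and 19.96 kb from its lower coordinate end, which is the 3′ end of this minus strand gene. They are 2 bp apart and can share fragments, so they count as 1 site.

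The stronger of that pair, chr7:115450816-115451016, had 22.9, 19.8 and 21.0 CPM in wild type, against 6.09, 3.05 and 5.21 CPM in N440K. The lowest wild type library stood above 3 times the highest N440K library. The means were 21.2 ± 1.59 and 4.78 ± 1.56 CPM (SD, n = 3 each), 4.31-fold lower in N440K, with a log2 difference of -2.11 ± 0.29 (SE) and an adjusted p of 5.14e-06 in edgeR. Its neighbour, chr7:115450613-115450813, had 16.7, 16.1 and 17.2 CPM in wild type, against 4.98, 3.05 and 5.21 CPM in N440K. There the signal was 3.69-fold lower, with a log2 difference of -1.88 ± 0.31 (SE) and an adjusted p of 0.000189 in edgeR.

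The third called interval lay inside the gene at chr7:115951750-115951950, 88.9 kb from the upper coordinate end. It had 12.4, 6.18 and 10.7 CPM in wild type, from 20, 15 and 25 reads, and 1.66, 0 and 1.04 CPM in N440K, from 3, 0 and 2 reads. The N440K reads were few, and 0 reads in a library allow up to 1.83 CPM (3 reads), a limit that covers counting error only. The log2 difference was -3.27 ± 0.55 (SE) with an adjusted p of 0.000238 in edgeR, and it depends on the prior count at so few reads. With so few N440K reads, the interval passed the low-count filter through its wild type libraries, so its test is a description and no independent support. These 3 intervals stayed called in all 14 other fits, whose highest adjusted p-values were 0.00156, 0.0224 and 0.0302 in the order given here.

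The 6 Sox6 intervals that were not called were also lower in sum. They stood at 58.2, 53.1 and 50.2 CPM in wild type, and in N440K at 43.7, 30.5 and 30.7 CPM, with no overlap. N440K thus held 65.0% of the wild type mean, against 21.2% at the 3 called intervals. The calls came from the same libraries, so the larger difference at the called intervals follows from the split. Among the 6 uncalled intervals, chr7:115539154-115539354 had 9.29, 10.7 and 8.58 CPM in wild type, against 6.09, 4.27 and 4.68 CPM in N440K (log2 difference -0.92 ± 0.35, SE; edgeR adjusted p = 0.219). The interval just inside the upper end of the body, chr7:116040260-116040460, had 8.67, 7.82 and 6.87 CPM against 3.88, 4.88 and 5.73 CPM (edgeR adjusted p = 0.471). At the strongest uncalled interval, chr7:115615693-115615893, the libraries overlapped, with means of 12.4 ± 3.25 and 8.75 ± 1.53 CPM (SD, n = 3 each).

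**Figure D3:**
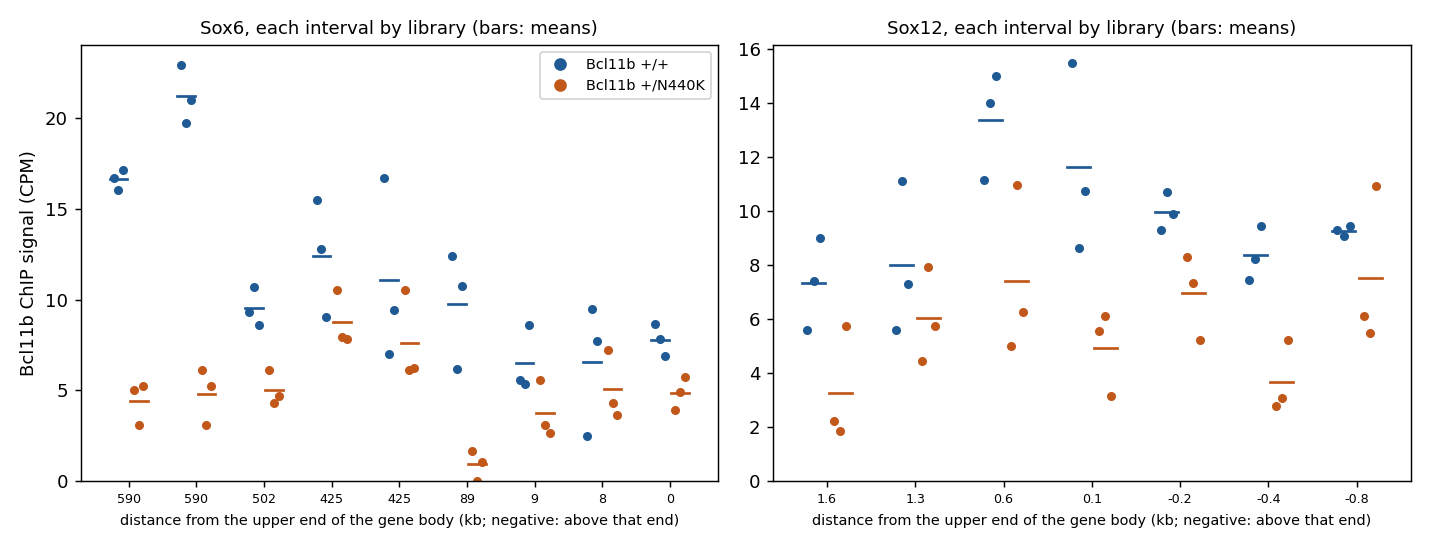
Bcl11b signal (CPM) in each library at the 9 Sox6 intervals and the 7 Sox12 intervals, in genome order, with bars at the genotype means and labels giving the distance from the upper end of the gene body (kb). The N440K mean lies below the wild type mean at all 16 intervals, and the widest separations are at the pair beside Sox6 and at the Sox6 interval 89 kb from the upper end.

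Intervals that the rule did not use gave the same direction at Sox6. All 18 Sox6 intervals left out by the low-count filter had a negative log2 difference, with a median of -1.37, whereas 59.7% of all left-out intervals were negative. They held 471 reads in the wild type libraries and 150 in the N440K libraries. Several of them lie under 1 kb apart and can share fragments, so the 18 are not independent of each other. At 13 of the 18 the N440K libraries lay below the wild type libraries, against 14.1% of all left-out intervals, and 12 were lower with an unadjusted p under 0.05, against 9.21%. With the filter lifted, 2 were called lower in edgeR over all intervals, against 0.294% of the left-out intervals: chr7:115449124-115449324, with 5, 18 and 20 reads in wild type and 2, 3 and 2 in N440K (adjusted p = 0.0184), and chr7:115501614-115501814, with 4, 8 and 19 reads and 1, 2 and 0 (adjusted p = 0.0245). The first of these lies 21.6 kb from the lower end, beside the called pair that was known when the genes were chosen. In the other genes, 5 of 9 left-out intervals at Sox4, 10 of 23 at Sox5 and 3 of 5 at Sox13 were negative.

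The lower signal did not end at the 100 kb limit. A further 9 intervals of the CPM table had Sox6 as the nearest gene, at 103.8 to 253.9 kb from its lower end. All 9 had a negative difference, against 49.5% of all intervals, with a median log2 difference of -1.06. Of the 9, 2 were called lower, against 0.681% of all intervals. Some of the 9 lie under 1 kb apart, so they are not independent of each other. The interval chr7:115322112-115322312 had 34.7, 32.9 and 21.5 CPM in wild type, against 13.8, 14.0 and 10.9 CPM in N440K, 2.27-fold lower (edgeR adjusted p = 0.00137). The interval chr7:115360235-115360435 had 17.3, 14.0 and 10.7 CPM against 4.43, 10.4 and 2.08 CPM, 2.51-fold lower (edgeR adjusted p = 0.0331). Over all 18 intervals nearest to Sox6, the N440K libraries held 51.7%, 48.4% and 42.3% of the wild type mean, and the wild type libraries 111.6%, 94.1% and 94.3%.

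Beyond Sox6, the 10 intervals of other genes within 1 Mb of its lower end had a median log2 difference of -0.71. Of these, 2 were called lower, against 0.681% of all intervals. Both were nearest to Insc, with means of 22.8 and 9.73 CPM at the stronger. Over the 10, N440K held 74.1% of the wild type sum. On the upper side, 24 intervals had a median of -0.09, 1 was called, inside Plekha7, and N440K held 91.1% of the wild type sum. The other 3836 intervals of chromosome 7 had a median of 0.02 and a sum of 101.7% of wild type.

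**Figure D4:**
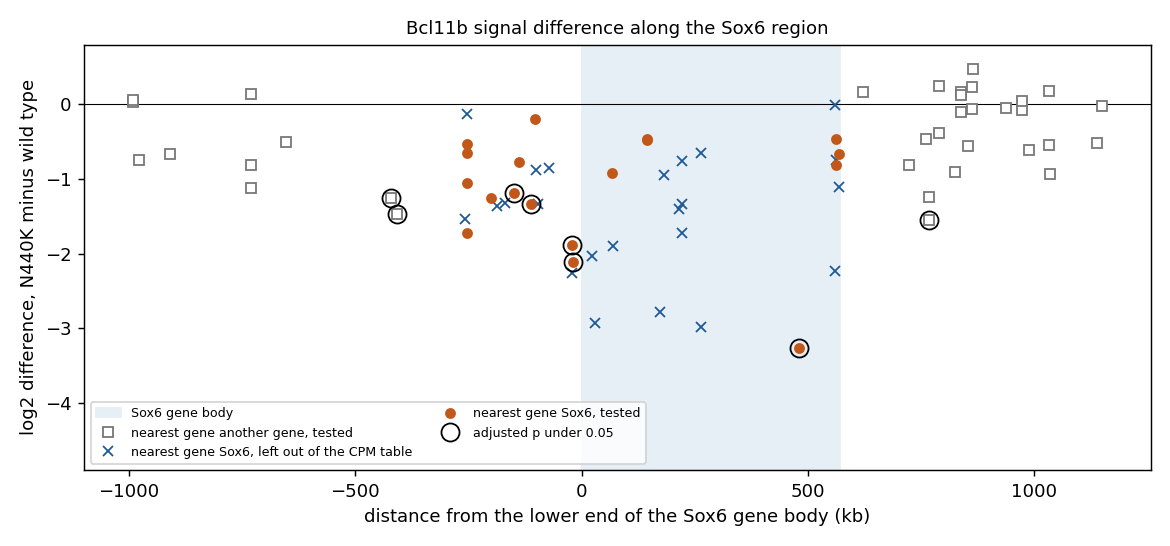
Log2 difference (N440K minus wild type) of intervals along the Sox6 region against their distance from the lower end of the gene body (kb), with the body shaded. Filled points have Sox6 as the nearest gene, crosses are Sox6 intervals left out of the CPM table, open squares belong to other genes and rings mark an adjusted p under 0.05; the Sox6 points lie below 0 within the body and on its lower side, out to 253.9 kb, with the crosses there ranging up to about 0.

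Sox5, which often acts together with Sox6 in cartilage, had 0 intervals called (edgeR), with 0 lower and 2 higher at an unadjusted p under 0.05 and 0 called by DESeq2 or limma voom. Its body, the longest of the 6 genes at 953.9 kb (chromosome 6, 143828425 to 144782287), held 15 intervals and 4 more lay 76.7 to 77.7 kb below it. The median log2 difference of the 19 was 0.17, and 13 of 19 were positive. The strongest signal came from 4 intervals from 104.6 to 111.7 kb inside the upper end, which summed to 81.3 ± 11.2 CPM in wild type, against 90.3 ± 6.06 CPM in N440K (SD, n = 3 each), with overlap. One of these, chr6:144670504-144670704, had 20.4, 18.9 and 24.9 CPM in wild type, against 33.8, 31.7 and 28.1 CPM in N440K. Its libraries did not overlap, but its log2 difference of 0.53 ± 0.19 (SE) did not pass the test (edgeR adjusted p = 0.164). The neighbouring interval, chr6:144670811-144671011, had 24.8, 23.1 and 24.9 CPM against 19.9, 22.0 and 28.1 CPM.

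Sox13, a short SoxD gene of 42.2 kb on chromosome 1 (133382300 to 133424459), held 7 intervals inside and 3 beside it, at a median of 9.92 CPM. Its strongest interval, chr1:133385661-133385861, had 18.6, 21.8 and 19.7 CPM in wild type, against 19.4, 16.5 and 17.2 CPM in N440K, with overlap. The smallest p belonged to chr1:133493369-133493569, 69.0 kb before the gene, with 13.01, 14.0 and 12.9 CPM against 7.20, 8.54 and 8.85 CPM. The libraries there did not overlap, and the log2 difference of -0.70 ± 0.28 (SE) did not pass the test (edgeR adjusted p = 0.257). The interval next to it had means of 9.72 and 11.8 CPM, with a positive difference.

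On summed counts Sox6 was the only SoxD gene called. Its sums were 110, 95.1 and 99.2 CPM in wild type, against 56.5, 36.6 and 42.2 CPM in N440K, 2.26-fold lower. The log2 difference was -1.17 ± 0.13 (SE), the adjusted p 1.18e-06 in edgeR and the rank 7 of 13282 genes. This sum includes the pair beside the gene that was known when the genes were chosen, so it is not independent of that choice. Over the 7 intervals inside the body alone, in a fit added after seeing the data, the sums were 70.6, 59.3 and 60.95 CPM in wild type, against 45.4, 30.5 and 31.8 CPM in N440K. Without the pair the log2 difference was -0.83 ± 0.15 (SE), 1.77-fold lower, with an adjusted p of 0.00112 in edgeR and rank 61. These 7 include the called interval that passed the low-count filter through its wild type libraries, so this sum is not independent of that filter. Sox13 sums were 99.8, 111 and 106 CPM in wild type, against 88.0, 92.7 and 99.4 CPM in N440K. These did not overlap, by a margin under 1 CPM, and the log2 difference of -0.20 ± 0.10 (SE) had an adjusted p of 0.352 in edgeR. Sox5 sums were 232, 192 and 223 CPM against 215, 220 and 268 CPM, with overlap and a log2 difference of 0.11 ± 0.09 (SE; edgeR adjusted p = 0.633).

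The difference between SoxD genes was then taken within each library. The log2 ratio of the Sox6 sum to the Sox5 sum was -1.07, -1.02 and -1.17 in wild type and -1.93, -2.58 and -2.67 in N440K. That of Sox6 to Sox13 was 0.14, -0.23 and -0.10 in wild type and -0.64, -1.34 and -1.24 in N440K. Neither ratio overlapped between the genotypes, and the mean differences were -1.31 and -1.012. Each had a two-sided exact permutation p of 0.1, the smallest possible with 3 libraries a genotype. Both include the pair of intervals beside Sox6 that was known when the genes were chosen. The Sox6 sums alone did not overlap between the genotypes, so these ratios are no separate support.

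Sox17 had 1 interval, chr1:4496370-4496570, inside its body on chromosome 1 (4490928 to 4497426). It had 4.34, 8.23 and 9.44 CPM in wild type, against 3.32, 4.27 and 6.25 CPM in N440K. The libraries overlapped, and the log2 difference of -0.70 ± 0.39 (SE) had an adjusted p of 0.460 in edgeR.

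**Figure D5:**
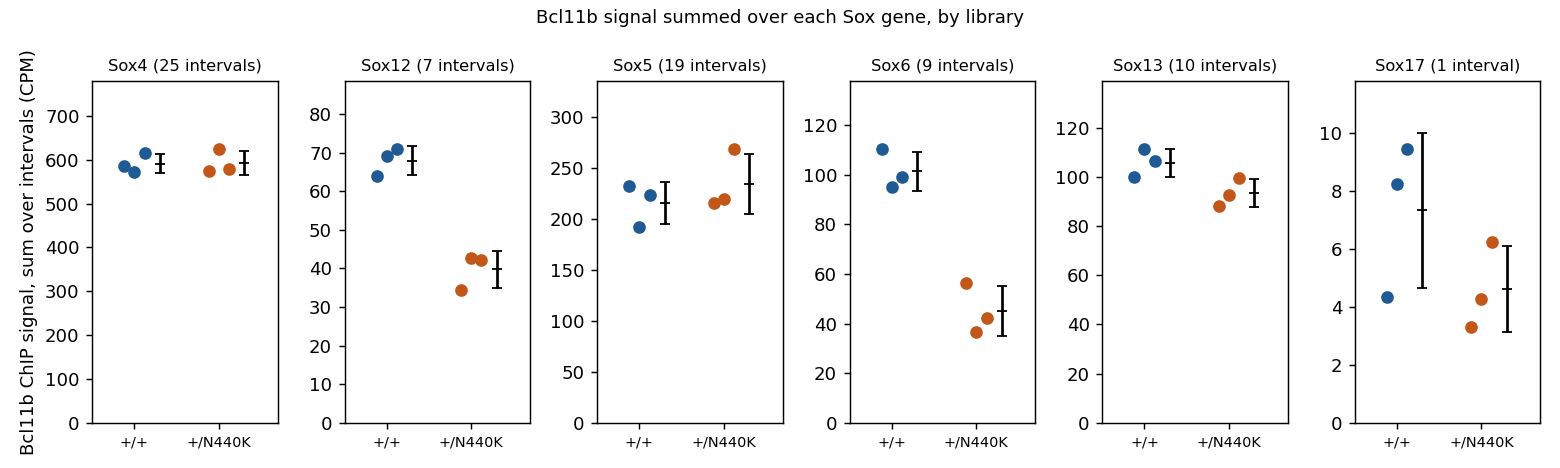
Bcl11b signal summed over the intervals of each Sox gene (CPM), by library, with the genotype mean and SD beside the points; each gene has its own axis from 0. The N440K libraries lie below the wild type libraries at Sox12, Sox6 and, narrowly, Sox13, and overlap them at Sox4, Sox5 and Sox17.

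Low signal moved with the genes that were lower. Sox6 had 8 of its 9 intervals, and Sox12 all 7, below the median level of all intervals, while Sox4 had 16 of 25 in the top 25% by level. Across all intervals, the median log2 difference was -0.08 in the lowest 25% by level and 0.06 in the highest 25%, and 0.767% and 0.431% were called lower. Sox5 and Sox13 had 12 of 19 and 9 of 10 intervals below that median, and 0 calls. The part of signal level in the Sox6 and Sox12 results was not tested.

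Other genes of the pathways were described by lists, beside the 1.14% of all intervals called and the 3.31% of all genes called on summed counts. Of 14 other Sox genes, Sox8 and Sox30 alone had intervals, 5 in all, with 0 called and a median log2 difference of -0.25. All 12 other HMG-box genes listed had intervals, 175 in all, with 0 called and a median of 0.00. Among them Tcf7, the T cell factor of the Wnt pathway, carried the strongest interval at 188.3 CPM, and its summed signal had a log2 difference of -0.03 ± 0.06 (SE). Tox3 was the HMG-box gene called on summed counts, with 37.2, 37.9 and 38.6 CPM in wild type, against 17.7, 15.9 and 26.5 CPM in N440K (log2 difference -0.92 ± 0.19, SE; edgeR adjusted p = 0.00364).

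The list of the gamma delta and interleukin 17 programme, in which Sox4 and Sox13 act, had intervals at 11 of 14 genes. Of 126 intervals, 2 were called lower, at Zbtb16 and Gata3, and 1 higher, at Blk, with a median of -0.08. Over all intervals, 0.681% were called lower and 0.46% higher. On summed counts Zbtb16, which encodes the factor of innate-like T cells PLZF, was called lower, from 147, 126 and 132 CPM in wild type to 100, 102 and 53.1 CPM in N440K (edgeR adjusted p = 0.00319). Blk, a kinase of interleukin 17 producing gamma delta T cells, was called higher, from 55.1, 57.2 and 55.8 CPM to 89.1, 59.2 and 88.0 CPM (edgeR adjusted p = 0.0415).

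Among Sox partners and Wnt pathway genes, all 8 had intervals. Of 63 intervals 1 was called lower, against 0.681% of all intervals. It lay at Ctnnb1, the gene of beta-catenin, and the median of the 63 was -0.03. On summed counts Tle1, a corepressor, was called lower, from 100, 88.9 and 63.5 CPM to 70.3, 55.5 and 30.7 CPM, with overlap (edgeR adjusted p = 0.0204). For the labelled cell type, 11 of 12 thymocyte marker genes carried 96 intervals, with 0 called and a median of 0.01. Markers of other cell types also carried intervals, with 0 called singly. These lay at 2 of 6 myeloid, 4 of 6 B cell and 2 of 4 erythroid genes. Likewise, 4 of 5 endothelial, 3 of 6 thymic epithelial and 4 of 5 chondrocyte and mesenchymal genes had intervals. Itgam alone carried 13 of the myeloid intervals and Ebf1 11 of the B cell intervals, so those medians rest mostly on 1 gene each. The median log2 difference was -0.31 over 15 myeloid intervals, 12 of them negative, -0.23 over 16 B cell intervals, 11 of them negative, and -0.29 over 5 erythroid intervals, 4 of them negative. It was -0.02 over 39 endothelial, 0.06 over 17 thymic epithelial and 0.02 over 10 chondrocyte and mesenchymal intervals. On summed counts the myeloid gene Itgam was called lower, at 254.7, 172.5 and 218.0 CPM in wild type, against 169.4, 161.7 and 165.0 CPM in N440K (edgeR adjusted p = 0.0344). Binding near a marker does not measure the cell type's share, which was not tested.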

How the data were processed

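Thymocyte chromatin was cross-linked and precipitated with a rabbit antibody against Bcl11b and sequenced on an Illumina instrument, per the labels' protocols. The tools listed in the submitters' processing notes, without their roles, are edgeR 3.38.2, bedtools, MACS2, SAMtools 1.9, Bowtie2 2.3.5 and fastp 0.20.0, on mm10. Sources used here do not say whether the intervals come from single or pooled libraries, or how duplicates were treated. The authors deposited read counts without normalization for 93708 intervals, and CPM values for 63098 of them. Each CPM value was a count divided by 1 constant per library: whole reads came back for 100% of values (tolerance 0.01), and these reads, tested as an alternative added after seeing the data, called 720 intervals.

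Counts of the 6 ChIP libraries were filtered with filterByExpr, scaled with TMM and fitted for the quasi-likelihood test of edgeR 4.0.16 (R 4.3.3), two-sided, by genotype alone, with Benjamini-Hochberg adjustment over all 63098 intervals and a threshold of 0.05. Gene sums over intervals within 100 kb were tested likewise over 13282 genes. Intervals inside a gene body were placed at distance 0; exons and introns were not told apart. Gene positions and promoters came from RefSeq on GRCm38.p6, and all 6 genes matched by symbol, 5 of them with a promoter. Likeness was Pearson's r of log2(summed CPM + 0.5) over 6 libraries, for genes with 0.5 to 2 times a member's number of intervals. Other software was Python 3.11.15.

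The members and lists were chosen with earlier results of these data known. Named intervals were, for each gene, the 2 with the highest mean CPM and the 2 with the smallest p, all called intervals, and those at the edges of the rule; other intervals and genes in the text were named after their values were seen. In data simulated for this comparison over 59944 intervals, edgeR recovered 2, 24, 46 and 50 of 50 intervals changed 1.5-, 2-, 3- and 4-fold, with 5 false calls among 127. Chi-square per degree of freedom between libraries was 1.24 to 1.42 within a genotype and 1.54 to 1.79 between genotypes; none of the libraries duplicated another. Alternatives were DESeq2, limma voom, other scalings and filters, omission of each library, a replicate block and other distance limits; a Sox6 sum without the intervals outside its body was added after seeing the data.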

Additional observations from a re-analysis of the deposited data

How the results depend on the processing

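The 3 Sox6 intervals called lower were called in all 14 other fits run. Of those, the fit on reads recovered from the CPM values repeated the main one. On summed counts Sox6 and Sox12 were called in all 14, 1 of them without the pair beside Sox6. There the fits without the low-count filter and with a mean CPM of at least 2 repeated the main fit over the same 13282 genes. The fit without the pair left the Sox12 counts unchanged. Across these fits the Sox12 adjusted p ranged from 0.000464 to 0.0111 and its log2 difference from -0.86 to -0.70. The count over all intervals, 720, was 60 with DESeq2, 318 with limma voom and 289 to 502 when 1 library was left out, the lowest without N440K replicate 1; the leave-one-out fits hold fewer libraries, and the cause of the other changes was not tested. Without WT replicates 1, 2 and 3 it was 408, 469 and 404, and without N440K replicates 2 and 3 it was 502 and 368. The count of genes called on summed counts, 440, was 158 with DESeq2, 541 with the replicate block and 228 to 388 when 1 library was left out. With a distance limit of 200 kb, 5 Sox intervals were called lower, since the 2 called ones beyond Sox6 then enter. With a limit of 20 kb, 2 were called lower, since 1 of the pair beside Sox6 then falls out. Some uncalled differences near 0 changed sign when a library was left out, and their cause was not tested: the Sox4 sum reached 0.00927 without N440K replicate 1 and 0.0307 without WT replicate 3 (range -0.0517 to 0.0307), and the Sox5 sum -0.00864 without N440K replicate 3 (range -0.00864 to 0.172). The Sox4 interval chr13:28958454-28958654 reached 0.0247 without N440K replicate 3 and 0.0103 without WT replicate 3 (range -0.135 to 0.0247), and the Sox5 interval chr6:144670811-144671011 0.0596 without N440K replicate 1 (range -0.210 to 0.0596).

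The labels number the replicates alike in both genotypes. Libraries of the same number deviated from their genotype means with correlations of -0.0037, 0.028 and 0.058, and those of different number with -0.047 to 0.017. All were near 0, though 0.028 and 0.058 lay above every value for different numbers. Correlations this small cannot tell whether libraries of the same number were handled together, which was not tested. With the number as a replicate block, 753 intervals were called, 3 Sox intervals were lower and 2 Sox genes were called on summed counts, with log2 differences of -1.20 at Sox6 and -0.79 at Sox12. In the simulated data most 1.5-fold changes were not recovered at these libraries' sizes.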

Other observations

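The genes whose summed signal varied most like that of each Sox gene over the 6 libraries were Ahdc1 and Dgkz for Sox4 (Pearson's r = 0.979 and 0.934), Cd28 and Rngtt for Sox5 (0.994 and 0.975), Nfam1 and Lrrc28 for Sox6 (0.993 and 0.987), Scube3 and Myh10 for Sox12 (0.993 for both), Mdga1 and Cnnm2 for Sox13 (0.993 and 0.988) and Cox4i2 and Psrc1 for Sox17 (0.977 and 0.975). These are the highest of 855 to 5909 genes compared for each member and all share the same 6 libraries, so the values are a description. Cd28 encodes a costimulatory receptor of T cells, and its 19 intervals equal in number those of Sox5.

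Among the Sox genes, the share of intervals inside gene bodies was 59.2%, against 61.6% of all intervals, and 15 of 71 (21.1%) lay within 1 kb of a gene end, against 32.1%. By gene, 5 of the 7 Sox12 intervals lay that near an end, but 2 of 19 at Sox5 and 1 of 9 at Sox6. Of the 92 intervals of other genes within 1 Mb of Sox13, 45 had a negative and 47 a positive difference, with a median log2 difference of 0.00. Among them 2 were called lower, against 0.681% of all intervals. They lay inside Plekha6 and Ppfia4, with means of 11.5 and 4.53 CPM and of 10.8 and 3.90 CPM in wild type and N440K.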
